A study of Mus musculus with 6 samples.

Results

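The genes described here are 9 brakes on the mammalian cell cycle: the INK4 inhibitors Cdkn2a, Cdkn2b, Cdkn2c and Cdkn2d, the KIP inhibitor Cdkn1b, the Rb family genes Rb1, Rbl1 and Rbl2, and Trp53, which encodes p53. They were chosen by symbol, as the rows of the deposited expression table whose Ensembl gene ID maps to one of these names. All 9 were found among the 37224 gene IDs of the table, each once. Cdkn1a and Cdkn1c, the other KIP genes, are not among the 9 and are given only for comparison.

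INK4 proteins bind CDK4 and CDK6 and keep them from pairing with D-type cyclins, whereas KIP proteins bind cyclin-CDK2 complexes. When these kinases are held back, the pocket proteins made by Rb1, Rbl1 and Rbl2 stay bound to E2F transcription factors and S phase genes stay repressed. Cdkn2a also encodes ARF, a protein made in another reading frame that blocks MDM2, the ubiquitin ligase of p53, and in cultured mouse embryonic fibroblasts (MEF) the ARF and p53 pathway is known for its part in senescence.

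The study measured RNA in MEF on a C57BL/6 background after 24 h without or with low-dose sodium arsenite, an inorganic arsenic salt. The 4 groups were wild-type control, wild-type with arsenite, Dot1L-/- control and Dot1L-/- with arsenite, called null below, and each held 1 library. DOT1L is the enzyme that methylates H3K79. The labels list 5 and 10 µM beside 0 µM arsenite without saying which dose was sequenced, call the cells both primary and cell lines, and do not say how the Dot1L allele was made or whether a line is 1 clone. The series also lists 2 ChIP libraries for H3K27ac, which were not analysed here.

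Since each group held 1 library, every difference below is between libraries, with no replicate check and no p-value. Levels are RPKM, a read count divided by the length of the gene and the depth of its library. Depth, recovered from the steps in which RPKM values move, was 62972880 and 64699847 reads in the wild-type and null controls and 10833103 and 11879632 with arsenite, so the controls were 5.81 and 5.45 times deeper. Dot1l stood at 30.4 and 9.59 RPKM in untreated wild-type and null cells, and at 5.71 and 1.24 with arsenite, lower in the null but not absent. The labels do not say which bases the allele lacks. Of 11 fibroblast markers, 8 reached 1 RPKM in any library, Vim being the highest in all 4, and Thy1 was listed at 0 in all 4. The summed level of these markers was 1986 and 819 RPKM in wild type without and with arsenite, and 1338 and 1172 in the null. Vim made up most of each sum, at 1310 and 702 RPKM in wild type and 893 and 1001 in the null, in the same order. In the null Vim was thus higher with arsenite, whereas the rest of the sum was lower. Of the markers of other cell types, at most 3 of a list reached 1 RPKM in any library. Tubb3, the highest of the neural list, stood at 61.9, 18.5, 20.2 and 16.2 RPKM in the order just given. Whether such cells contribute to any result was not tested, and in bulk RNA fewer cells of a type cannot be told apart from less RNA per cell.

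Sequence before the start sites is shown for Cdkn2a, Cdkn2b and Rbl1, because the first 2 lie side by side and because the single Cdkn2a row adds up transcripts from separate starts. RefSeq start sites of the build GRCm38.p6 were found for 8 of the 9 genes, 10 starts in all, with no entry for Rb1. Each line gives the 250 bases upstream of a start on the gene's strand, with matches to an E2F site (TTTCCCGC, TTTGGCGC, TTTCGCGC or TTTGCCGC, either strand) in capitals. In order, they are the ARF start of Cdkn2a (chr4:89294620-89294869, minus strand), its INK4A start (chr4:89282193-89282442, minus strand), Cdkn2b (chr4:89311033-89311282, minus strand) and Rbl1 (chr2:157204535-157204784, minus strand).
Cdkn2a ARF start: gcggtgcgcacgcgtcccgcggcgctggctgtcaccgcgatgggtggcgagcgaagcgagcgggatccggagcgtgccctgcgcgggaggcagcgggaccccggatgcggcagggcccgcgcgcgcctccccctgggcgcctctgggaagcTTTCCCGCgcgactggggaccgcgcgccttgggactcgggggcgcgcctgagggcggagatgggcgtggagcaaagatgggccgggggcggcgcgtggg
Cdkn2a INK4A start: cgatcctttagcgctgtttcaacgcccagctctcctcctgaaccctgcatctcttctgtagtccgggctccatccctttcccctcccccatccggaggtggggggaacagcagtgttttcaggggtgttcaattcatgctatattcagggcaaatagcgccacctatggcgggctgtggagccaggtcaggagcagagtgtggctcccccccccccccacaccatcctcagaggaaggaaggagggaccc
Cdkn2b: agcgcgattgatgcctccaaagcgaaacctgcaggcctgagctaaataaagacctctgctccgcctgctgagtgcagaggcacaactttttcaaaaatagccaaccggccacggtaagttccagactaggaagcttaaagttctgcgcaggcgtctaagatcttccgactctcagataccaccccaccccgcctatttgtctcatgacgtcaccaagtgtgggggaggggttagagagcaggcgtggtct
Rbl1: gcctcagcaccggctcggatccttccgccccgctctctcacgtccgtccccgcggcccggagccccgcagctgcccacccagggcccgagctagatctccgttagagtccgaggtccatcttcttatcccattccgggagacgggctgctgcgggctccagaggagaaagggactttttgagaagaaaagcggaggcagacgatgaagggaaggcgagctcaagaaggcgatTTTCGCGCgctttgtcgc

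An E2F match was found in 1 of the windows of Cdkn2a, the one before the ARF start, and in that of Rbl1, and in no other window of these genes. Among 32851 windows of the same length in the table, 1.86% held one. The match lay 99 bases before the ARF start and 18 bases before the Rbl1 start, counted from its first base. The CHR letters TTTGAA, searched on both strands, were found before Cdkn2b and Rbl2 and in 16.0% of all windows. The antioxidant response element core TGACNNNGC was found before the INK4A start of Cdkn2a and before Trp53 and in 10.2% of all windows. A match is a description of the letters and not evidence that a factor binds there.

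All 9 genes reached 1 RPKM in at least 1 library, the level that 12588 genes of the table reached in any library, and differences are set against these 12588 genes. In the wild-type control Cdkn2a was the highest of the 9 at 118 RPKM, above 97.0% of those genes, followed by Trp53 (56.1), Cdkn2b (38.8), Cdkn2d (19.4), Cdkn1b (16.99), Cdkn2c (11.5), Rbl2 (8.69), Rbl1 (7.95) and Rb1 (4.99). No neighbours in that order had overlapping 95% counting intervals. In the null control Trp53 came first at 70.9 RPKM and Cdkn2d last at 1.63. The intervals of Rb1 (2.83) and Rbl1 (2.51) overlapped there, as did those of Cdkn2c (1.69) and Cdkn2d. Cdkn2a was the highest in both arsenite libraries, with Cdkn2d second, though in the null with arsenite Cdkn2d (29.3), Cdkn2b (26.8) and Trp53 (24.6) overlapped each with the next. Rb1 was the lowest of the 9 in 3 libraries, the null control being the exception, though in the null with arsenite its interval overlapped that of Rbl1.

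**Figure D1:**
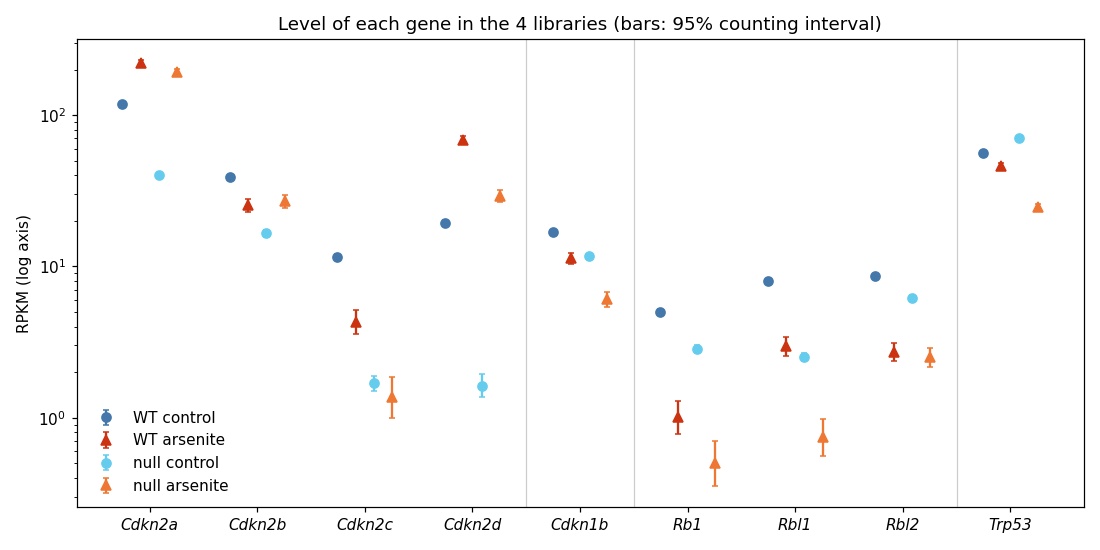
Level in RPKM (log axis) of each of the 9 genes in the 4 libraries, with circles for control and triangles for arsenite; bars are exact Poisson 95% intervals of the reads behind each value and cover counting error only. Cdkn2d is spread the most, from 1.63 to 68.6 RPKM, and the null control is the lowest of the 4 libraries for Cdkn2a, Cdkn2b and Cdkn2d.

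The INK4 genes were lower in untreated null cells than in untreated wild-type cells. Summed, they reached 188 RPKM in untreated wild-type cells against 59.9 in untreated null cells. With arsenite the sum was 320 in wild type and 251 in the null. Cdkn2a made up 62.8% and 69.4% of the sum in wild type without and with arsenite and 66.9% and 77.1% in the null, so the sum mainly follows that gene.

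Cdkn2a (ENSMUSG00000044303, chromosome 4, 89274473 to 89294619 in GRCm38) encodes p16INK4A and, from its other start, ARF. Its level was 118 RPKM in untreated wild-type cells, 222 in wild type with arsenite, 40.1 in untreated null cells and 194 in arsenite-treated null cells. Both arsenite libraries were above both controls, and the null control stood lowest. Untreated null cells were 2.94-fold lower than wild type (95% counting interval 2.82 to 3.07). Arsenite was 1.89-fold higher than control in wild type (1.81 to 1.97) and 4.84-fold higher in the null (4.59 to 5.10), intervals that do not overlap. With arsenite the null was 1.15-fold lower than wild type (1.09 to 1.21), and 75th percentile scaling and centring on the median of all genes put it slightly above wild type, at log2 differences of 0.07 and 0.09. The table gives 1 value for the gene, so p16INK4A and ARF transcripts cannot be told apart.

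Cdkn2b (ENSMUSG00000073802, chromosome 4, 89306289 to 89311032) encodes p15INK4B, the INK4 protein known as a target of TGF-beta. It had 38.8 RPKM in untreated and 25.2 in arsenite-treated wild-type cells, 16.5 in untreated null cells and 26.8 in arsenite-treated null cells. The controls stood at the ends of the range and the arsenite libraries met in the middle, with overlapping counting intervals. The untreated null was 2.35-fold lower than wild type (2.21 to 2.50). Arsenite was 1.54-fold lower than control in wild type (1.38 to 1.71) and 1.63-fold higher in the null (1.46 to 1.81), so the directions were opposite. The sizes depend on the scaling. In wild type the log2 difference of −0.60 became −0.04 when centred on the median of all genes, −0.11 with 75th percentiles made equal and −1.07 once the length trend described below was removed. In the null, 0.67 became 1.20, 1.27 and 0.21 in the same order. Gm12610, a long noncoding RNA on the opposite strand, overlaps Cdkn2b and stood at 3.12, 1.27, 0.479 and 0 RPKM in the order above. The strand setting of the counting is not given in the sources used here, so reads of the pair cannot be told apart.

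Cdkn2a and Cdkn2b are neighbours, and the ratio of their levels within a library does not depend on how libraries are scaled. That ratio was 3.04 and 2.43 in untreated wild-type and null cells, against 8.80 and 7.23 with arsenite. Mtap, the nearest other protein-coding gene on the side of Cdkn2a, encodes an enzyme of methionine salvage. It had 49.4 and 27.04 RPKM in wild type without and with arsenite and 25.5 and 8.58 in the null, lower with arsenite in both. On the other side, Dmrta1 was at or below 0.159 RPKM in every library. Apart from Mtap, Cdkn2a and Cdkn2b, no protein-coding gene with a value in the table within 500 kb of Cdkn2a reached 1 RPKM in any library. In the null, both inhibitor genes were thus higher with arsenite and Mtap lower. The length trend described below bears on this contrast. Without it the log2 differences in the null were 1.60 for Cdkn2a and 0.21 for Cdkn2b, and no such value is given for Mtap.

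Cdkn2d (ENSMUSG00000096472, chromosome 9, 21288459 to 21291421) encodes p19INK4D, an INK4 protein that is a separate gene product from mouse ARF, which is also called p19. It stood at 19.4 RPKM in untreated and 68.6 in arsenite-treated wild-type cells, 1.63 in untreated null cells and 29.3 in arsenite-treated null cells, from 1553, 944, 134 and 443 reads. The order was the same as for Cdkn2a, with both arsenite libraries above both controls. Untreated null cells were 11.9-fold lower than wild type (9.98 to 14.3), the largest genotype difference among the 9 genes, and 0.612% of all genes had a lower log2 difference. Arsenite was 3.53-fold higher in wild type (3.26 to 3.83) and 18.0-fold higher in the null (14.8 to 22.01). With arsenite the null was 2.34-fold lower than wild type (2.09 to 2.62).

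Cdkn2c (ENSMUSG00000028551, chromosome 4, 109660876 to 109666756) encodes p18INK4C and followed another order. Its level was 11.5 RPKM in untreated wild-type cells, 4.30 in wild type with arsenite, 1.69 in untreated null cells and 1.38 in arsenite-treated null cells. Both wild-type libraries were above both null libraries. The untreated null was 6.79-fold lower than wild type (6.00 to 7.70), and with arsenite it was 3.12-fold lower (2.19 to 4.499). In wild type arsenite was 2.67-fold lower than control (2.23 to 3.23), a log2 difference of −1.24 that fell short of 2-fold after median centring (−0.68), 75th percentile scaling (−0.79) and removal of the length trend (−0.89). In the null the difference was not detectable at this depth, from 294 and 44 reads, at 1.23-fold lower (0.891 to 1.72).

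Cdkn1b (ENSMUSG00000003031, chromosome 6, 134920401 to 134925525) encodes p27KIP1, an inhibitor of cyclin E-CDK2 controlled largely by degradation of the protein. It stood at 16.99 RPKM in untreated and 11.3 in arsenite-treated wild-type cells, 11.6 in untreated null cells and 6.05 in arsenite-treated null cells. The wild-type control was highest, the null with arsenite lowest, and the other two overlapped. Arsenite was 1.504-fold lower than control in wild type (1.38 to 1.64) and 1.93-fold lower in the null (1.72 to 2.16), but in wild type the log2 difference of −0.55 became 0.01 when centred on the median of all genes and 0.36 without the length trend described below, and in the null −0.84 became 0.05 without it. The other KIP genes did not follow it. Cdkn1a, which encodes p21, had 8.56 and 8.84 RPKM in wild type without and with arsenite and 143 and 168 in the null. It was 16.7-fold higher in the untreated null (15.7 to 17.7) and 19.0-fold higher with arsenite (16.5 to 21.9). Within a library, the Cdkn1a level was 0.504 and 0.783 times that of Cdkn1b in wild type and 12.2 and 27.8 times in the null. The length recovered was 2223 bases for Cdkn1a and 4552 for Cdkn1b, so the length trend bears on the change of this ratio with arsenite. Without the trend, the arsenite differences of Cdkn1a and Cdkn1b were 0.17 and 0.36 in wild type and 0.39 and 0.05 in the null. Cdkn1c, which encodes p57, had 9, 3, 1 and 0 reads in the 4 libraries and did not reach 1 RPKM.

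The pocket protein genes were lower with arsenite in both genotypes, although Rbl1 and Rbl2 changed sign in the null once the trend on gene length described below was removed. Rb1 (ENSMUSG00000022105, chromosome 14, 73192858 to 73325951), the retinoblastoma gene, stood at 4.99 RPKM in untreated and 1.01 in arsenite-treated wild-type cells, 2.83 in untreated null cells and 0.504 in arsenite-treated null cells. Both arsenite libraries were below both controls, at 66 and 36 reads against 1892 and 1102. Arsenite was 4.93-fold lower in wild type (3.86 to 6.40) and 5.62-fold lower in the null (4.03 to 8.07), and the untreated null was 1.76-fold lower than wild type (1.64 to 1.90). Lpar6, a receptor gene inside Rb1, went the other way as deposited, at 4.38 and 6.02 RPKM in wild type and 0.726 and 1.60 in the null. No value without the length trend is given for Lpar6. The pair overlaps, and how reads in the overlap were assigned is not known.

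Rbl1 (ENSMUSG00000027641, chromosome 2, 157145893 to 157204534) encodes p107, a pocket protein made in cycling cells and itself known as an E2F target. Its level was 7.95 RPKM in untreated wild-type cells, 2.96 in wild type with arsenite, 2.51 in untreated null cells and 0.744 in arsenite-treated null cells. Arsenite was 2.69-fold lower in wild type (2.32 to 3.13) and 3.37-fold lower in the null (2.56 to 4.53). It was the pocket gene with the largest genotype difference, the null being 3.17-fold lower without arsenite (2.95 to 3.41) and 3.97-fold lower with it (2.92 to 5.49).

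Rbl2 (ENSMUSG00000031666, chromosome 8, 91070057 to 91123844) encodes p130, the pocket protein that predominates in resting cells as part of the DREAM repressor. It stood at 8.69 RPKM in untreated and 2.73 in arsenite-treated wild-type cells, 6.22 in untreated null cells and 2.50 in arsenite-treated null cells. Arsenite was 3.18-fold lower in wild type (2.76 to 3.68) and 2.48-fold lower in the null (2.16 to 2.88). The untreated null was 1.40-fold lower than wild type (1.33 to 1.47), while the arsenite libraries overlapped, at 1.09-fold lower (0.895 to 1.33). Per length, Rbl2 was 1.74 and 2.70 times Rb1 in wild type without and with arsenite and 2.20 and 4.97 times in the null. Aktip, on the opposite strand, overlaps Rbl2 and stood at 14.8, 8.82, 11.2 and 4.90 RPKM, and reads of the pair cannot be told apart without the strand setting.

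The differences with arsenite followed gene length across the whole table, and the pocket genes are the longest of the 9. The length recovered for Rb1, Rbl1 and Rbl2 was 6015, 5993 and 6963 bases, against 1170, 1393 and 1271 for Cdkn2a, Cdkn2b and Cdkn2d. Among 2322 genes of 5000 to under 8000 bases the median log2 difference with arsenite was −1.17 in both wild type and null, and among 885 genes of 1000 to under 1500 bases it was 0.65 and 0.64. On the same scale, log2((RPKM + 1)/(RPKM + 1)), Rb1, Rbl1 and Rbl2 had −1.57, −1.18 and −1.38 in wild type and −1.35, −1.01 and −1.04 in the null. With a smooth curve on length subtracted these became −0.41, −0.02 and −0.11 in wild type and −0.19, 0.15 and 0.22 in the null, so the last 2 changed sign. All 3 lay between the 25th and 75th percentiles of their length class, −1.83 to −0.54 in wild type and −1.95 to −0.42 in the null, and the part of length in their difference was not tested further. Cdkn2d kept 1.20 in wild type and 2.97 in the null after the same step, and Cdkn2a 0.26 and 1.60.

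**Figure D2:**
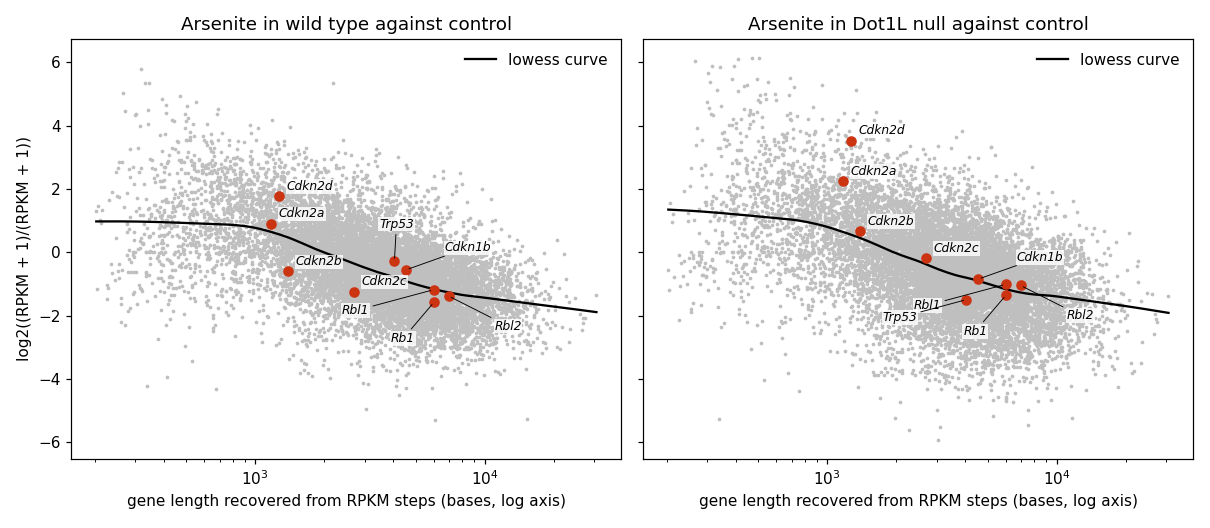
Log2 difference of arsenite against control, in wild type (left) and null (right), for each gene (grey) against its recovered length in bases on a log axis, with a lowess curve (black) and the 9 genes in red. Rb1 lies at −0.41 and −0.19 from the curve and Rbl2 at −0.11 and 0.22 from it, while Cdkn2d lies above it by 1.20 and 2.97.

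Trp53 (ENSMUSG00000059552, chromosome 11, 69580348 to 69591873) encodes p53, a transcription factor regulated mainly through the stability of its protein. Its level was 56.1 RPKM in untreated wild-type cells, 46.0 in wild type with arsenite, 70.9 in untreated null cells and 24.6 in arsenite-treated null cells. It was the only one of the 9 genes whose untreated null level was above wild type, 1.26-fold (1.24 to 1.29). Arsenite was 1.22-fold lower in wild type (1.16 to 1.28) and 2.89-fold lower in the null (2.72 to 3.06), intervals that do not overlap. In wild type the log2 difference of −0.28 became 0.28 when centred on the median of all genes and 0.50 without the length trend, while in the null it stayed below 0, at −0.96 and −0.69. Mdm2, which is both the ligase and a target gene of p53, stood at 15.1 and 4.24 RPKM in wild type and 72.9 and 24.0 in the null. The Trp53 level was 3.71 and 10.8 times that of Mdm2 in wild type without and with arsenite, and 0.973 and 1.03 times in the null.

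Counted over the 9 genes on the log2((RPKM + 1)/(RPKM + 1)) scale, 5 were at least 2-fold lower in the untreated null than in wild type and none was higher. The 5 were the 4 INK4 genes and Rbl1, and the median of the 9 was −1.18 against −0.17 over all genes. Of all 12588 genes, 14.7% were at least 2-fold lower and 6.45% higher in that comparison. The same 5 passed under median centring, 75th percentile scaling and removal of the length trend, where 10.9% of 12155 genes were lower and 9.22% higher. With arsenite, 3 of the 9 were at least 2-fold lower in the null (Cdkn2c, Cdkn2d and Rbl1) and none higher, against 16.9% and 8.75% of all genes, with medians of −0.80 and −0.28. The count of lower genes was 0 after median centring or removal of the length trend, the latter with 8.96% of genes lower and 12.5% higher.

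In wild type, 1 of the 9 (Cdkn2d) was at least 2-fold higher with arsenite and 4 were lower (Cdkn2c, Rb1, Rbl1 and Rbl2), where 12.8% of all genes were higher and 35.7% lower. The median of the 9 was −0.60, close to the −0.56 of all genes. In the null, 2 were higher (Cdkn2a and Cdkn2d) and 4 lower (the pocket genes and Trp53), against 15.2% and 37.1%, with medians of −0.84 and −0.53. In both genotypes 1 of the 9 was higher (Cdkn2d) and 3 were lower (the pocket genes), against 8.4% and 26.3% of all genes. The shares of lower genes are near those of all genes and say nothing particular of these 9. Without the length trend, 1 was higher and 1 lower (Cdkn2b) in wild type, and 2 higher and none lower in the null, where 15.8%, 15.4%, 20% and 21% of 12155 genes passed in the same order.

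Scaling also moved the balance over all genes. Of the genes past 2-fold with arsenite in wild type, 26.4% were higher as deposited, 52.8% with the median of all genes set to 0, 43.9% with 75th percentiles made equal and 50.7% once the length trend was taken out, and in the null the shares were 29.0%, 49.6%, 46.5% and 48.8%. For the genotype difference they were 30.5%, 43.9%, 39.2% and 45.9% without arsenite, and 34.1%, 57.1%, 48.6% and 58.2% with it.

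**Figure D3:**
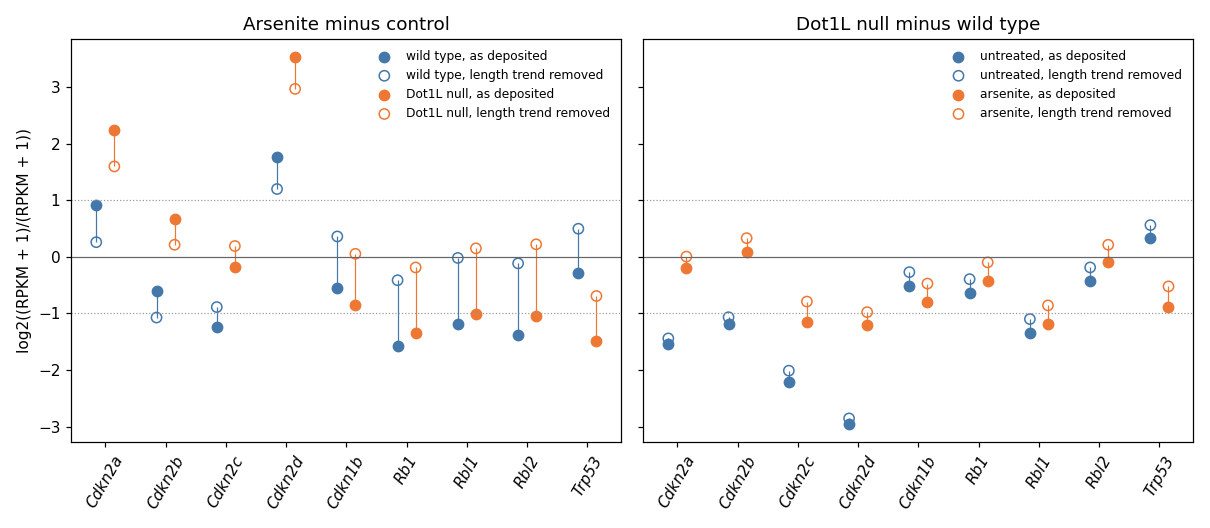
Log2 difference of each of the 9 genes, for arsenite against control in wild type and null (left) and for null against wild type without and with arsenite (right), with filled circles as deposited and open circles after removal of the length trend; dotted lines mark 2-fold. All 4 INK4 genes lie below −1 in the untreated genotype comparison whether or not the trend is removed, and Rb1, Rbl1 and Rbl2 move toward 0 in the arsenite panel.

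Subtracting the wild-type arsenite effect from that in the null gave a log2 value of 1 or more for all 4 INK4 genes: 1.34 for Cdkn2a, 1.27 for Cdkn2b, 1.06 for Cdkn2c and 1.76 for Cdkn2d. It was −1.21 for Trp53, and between −0.30 and 0.33 for Cdkn1b and the pocket genes, those of Rb1 and Rbl1 turning negative (−0.08 and −0.23) with a pseudocount of 0.1. Of all genes, 12.1% were at 1 or more and 12.8% at −1 or less. The INK4 values rest in part on the low null control, which also enters the genotype comparison, so the comparisons are not separate evidence. Each of the 5 values stayed past 1 in size, on the same side, under every scaling run, Cdkn2c being the nearest to 1 at 1.00 with 75th percentile scaling. The Cdkn2c effect in the null rests on 294 and 44 reads, with a counting interval that included no change. No interval is given for these differences.

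The INK4 proteins bind the kinases made by Cdk4 and Cdk6. Cdk4 had 233 and 439 RPKM in wild type without and with arsenite and 200.4 and 170 in the null, and Cdk6 8.14, 4.35, 4.18 and 2.97. The summed INK4 level was 0.778 and 0.722 times the sum of Cdk4 and Cdk6 in wild type, 0.293 times in the null control and 1.46 times in the null with arsenite. A scale factor per library does not change that ratio, but the kinase genes are longer than Cdkn2a and the length trend above bears on it. Cdkn2a also made up 62.8% to 77.1% of the INK4 sum, and its row pools p16INK4A with ARF transcripts. How much of the ratio stands for inhibitors of CDK4 and CDK6 is therefore not known. Of the 5 genes for D-type cyclins and their kinases, 1 was lower with arsenite in wild type (Ccnd2, cyclin D2, 65.6 and 21.2 RPKM) and 1 higher in the null (Ccnd1, cyclin D1, 78.4 and 264). In the untreated null 1 of the 5 was lower (Ccnd3, cyclin D3, a log2 difference of −1.14) and none higher. With the length trend removed, Ccnd2 had −0.47 and Ccnd3 −0.95, so neither passed, Cdk4 passed as higher with arsenite in wild type (1.48), and Ccnd1 still passed in the null. As deposited, these and the list counts that follow stand against 35.7% of all genes lower and 12.8% higher with arsenite in wild type. The shares are 37.1% and 15.2% with arsenite in the null, and 14.7% and 6.45% in the untreated null. Counts without the length trend stand against 15.4% of 12155 genes lower and 15.8% higher with arsenite in wild type. Those shares are 21% and 20% with arsenite in the null, and 10.9% and 9.22% in the untreated null.

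Of the 5 genes for cyclins E and A, CDK2 and CDC25A, none passed 2-fold with arsenite in wild type and 2 were lower in the null, Ccne2 (1.90 and 0.0723 RPKM) and Cdk2 (9.10 and 3.98). After the same step Ccne2 (−0.75) and Cdk2 (−0.77) no longer passed, and Ccne1, for cyclin E1, passed as higher in wild type (1.13). Between the arsenite libraries 4 of the 5 were lower in the null, against 16.9% of all genes. Without the trend 3 were lower, against 8.96% of 12155 genes. Of 10 genes for p27 turnover and its FOXO regulators, 3 were higher and 2 lower with arsenite in wild type, and 4 were lower in the null, where 35.7% and 37.1% of all genes were lower. Removal of the trend left 3 higher and 1 lower in wild type, and 1 was lower in the null, Cops5, which was not among the 4. Of 12155 genes, 15.8% were then higher and 15.4% lower in wild type, and 21% lower in the null. Cks1b, a cofactor of the ligase that marks p27 for degradation, had 52.9 and 209 RPKM in wild type and 43.4 and 64.7 in the null. Without the trend its log2 difference went from 1.96 to 1.05 in wild type. In the null it changed sign, from 0.57 to −0.54. Foxo3, a transcription factor known to activate Cdkn1b, had 18.8 and 1.40 RPKM in wild type and 22.05 and 4.59 in the null. With the trend removed, Foxo3 still passed in wild type (−1.73) but not in the null (−0.74).

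The E2F and DP genes, which encode the transcription factors that the pocket proteins bind, were lower with arsenite in 5 of 10 cases in wild type and 6 of 10 in the null, with none higher, against 35.7% and 37.1% of all genes lower. Without the length trend these counts were 1 and 5, against 15.4% and 21% of 12155 genes. Tfdp1, the DP1 partner of the E2F proteins, had 114 and 20.4 RPKM without and with arsenite in wild-type cells, against 156 and 5.50 in null cells. In the untreated null 5 of 10 were lower than in wild type (14.7% of all genes), and 4 without the length trend (10.9%). E2f8, a repressor of the family, was among the 5, at 5.14 and 0.608 RPKM. The next list holds 7 genes, for the MuvB core with which Rbl2 forms the DREAM complex and for other partners of that core. With arsenite 4 were lower and 1 higher in wild type, and 5 lower and 1 higher in the null. Of all genes, 35.7% and 37.1% were lower and 12.8% and 15.2% higher. Removing the trend left 4 lower and 1 higher in each genotype, where 15.4% and 21% of 12155 genes were lower and 15.8% and 20% higher. Foxm1, one of the other partners and a transcription factor of G2 and mitosis, stood at 59.2 and 15.8 RPKM in wild type and 11.8 and 3.52 in the null. Lin9 and Lin54, core MuvB subunits, had 7.15 and 0.898, and 8.72 and 1.06, in wild type.

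Of 17 E2F target genes of S phase, 8 were at least 2-fold lower in the untreated null (median −0.99) and 15 with arsenite (median −1.73), with none higher, where 14.7% and 16.9% of all genes were lower. Without the length trend the counts were 4 and 12, against 10.9% and 8.96% of 12155 genes. Arsenite in wild type had 3 higher and 3 lower (median −0.20), and in the null 2 higher and 7 lower (median −0.89). Without the trend these became 5 higher and 2 lower (median 0.27) in wild type, and 3 higher and 6 lower (median −0.32) in the null. Both counts of lower genes include Mcm6, at −1.40 and −1.59 against −0.61 and −0.76 as deposited. Its recovered length of 967 bases can be a whole fraction of the true length, so its place in these counts is uncertain. Tk1, thymidine kinase of the salvage pathway, had 18.1 and 49.0 RPKM in wild type and 1.08 and 19.7 in the null. Cdt1, a replication licensing factor, had 65.8 and 19.0 in wild type and 36.0 and 5.00 in the null, and Mcm4, a subunit of the replicative helicase, 43.8, 17.9, 34.7 and 4.29. With the trend removed, the Mcm4 log2 difference with arsenite in wild type was −0.57, short of 2-fold.

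Genes that control p53 were lower with arsenite in 7 of 14 cases in wild type and 9 of 14 in the null, none being higher, against 35.7% and 37.1% of all genes. Their median length was 4851 bases, and without the length trend 2 were lower in wild type, and 3 lower and 1 higher in the null. Of 12155 genes, 15.4% were then lower in wild type, and 21% lower and 20% higher in the null. As deposited, the lower genes included Mdm4, the MDM2 relative that binds p53 (11.5 and 2.21 RPKM in wild type, 18.6 and 0.647 in the null). Hipk2, a p53 kinase (10.3 and 1.61 in wild type), and Usp7, the deubiquitinase of MDM2 and p53 (18.7 and 3.70), were also among them. Without the trend Mdm4 still passed in wild type (−1.31), whereas Hipk2 (−0.73) and Usp7 (−0.74) did not. In the untreated null 1 of the 14 was higher, Mdm2.

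Of 18 p53 target genes 17 reached 1 RPKM, and 9 of these were at least 2-fold higher and 2 lower in the untreated null, with a median of 1.22 where the median of all genes was −0.17. With arsenite 10 were higher and 2 lower in the null than in wild type (median 1.31), against 8.75% and 16.9% of all genes. Cdkn1a and Mdm2, given above, were among the higher genes, as was Eda2r, a receptor gene of the TNF receptor family, at 1.40 and 25.01 RPKM in the untreated wild type and null. Sesn1, a sestrin gene, was among the lower, at 11.03 and 2.35. The Trp53 level itself differed by 1.26-fold between those libraries. Arsenite against control had 1 higher and 10 lower in wild type, and 3 higher and 9 lower in the null, where 35.7% and 37.1% of all genes were lower. Once the trend on length was removed, 7 were lower and none higher in wild type, and 6 lower and 1 higher in the null. Of 12155 genes, 15.4% and 21% were then lower, and 15.8% and 20% higher.

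Among 18 regulators of the INK4-ARF locus, of which 17 reached 1 RPKM, 7 were lower and 1 higher with arsenite in wild type and 9 lower and none higher in the null, against 35.7% and 37.1% of all genes lower and 12.8% and 15.2% higher. Without the length trend 6 were lower in wild type, and 7 lower and 2 higher in the null. Of 12155 genes, 15.4% were then lower in wild type, and 21% lower and 20% higher in the null. Bmi1, the Polycomb protein known for repressing the locus, had 19.5 and 3.09 RPKM in wild type and 22.7 and 2.25 in the null. Suz12, another Polycomb subunit, had 18.4, 2.78, 16.3 and 0.885. Ets2, a transcription factor known to activate Cdkn2a, had 52.7, 5.17, 50.7 and 3.68, and Dmtf1, which is known to activate ARF, 14.1, 2.20, 18.7 and 1.16. Repressors and activators of the locus were thus both among the genes lower with arsenite. In the untreated null 2 of the 17 were lower than in wild type and none higher.

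**Figure D4:**
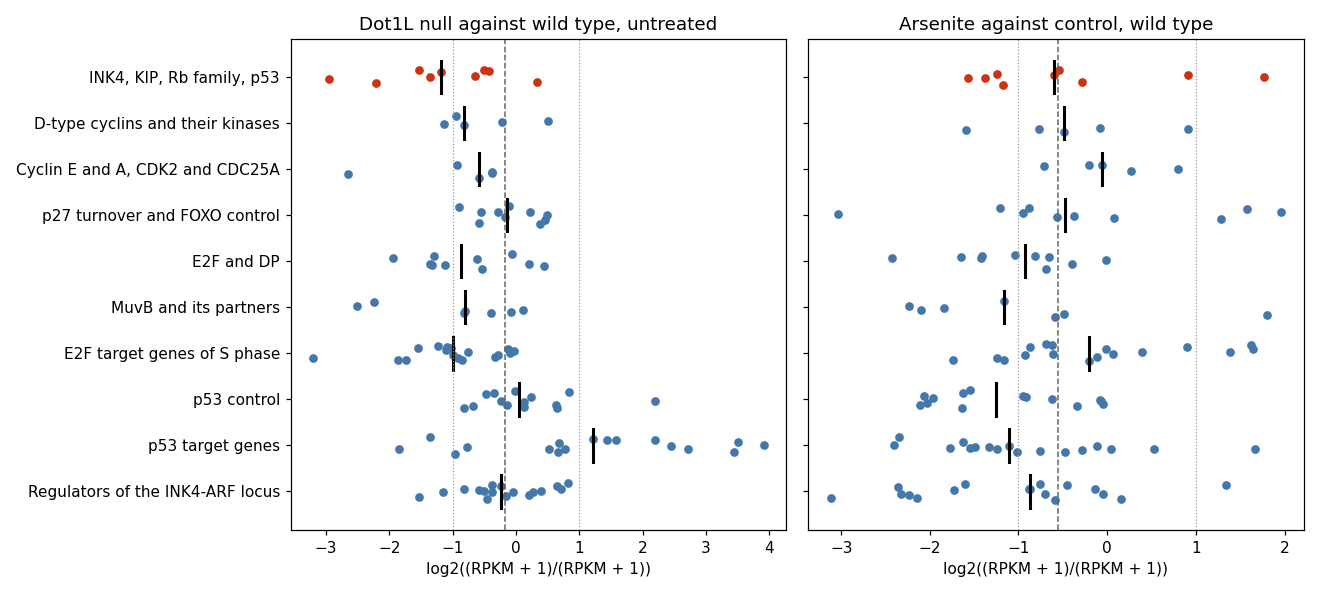
Log2 difference of each gene of the 9 and of the 9 pathway lists, for untreated null against wild type (left) and arsenite against control in wild type (right); short black bars are list medians, the dashed line is the median of all genes and dotted lines mark 2-fold. The 9 genes have a median of −1.18 on the left and p53 target genes one of 1.22, while on the right the median of the 9 (−0.60) sits at that of all genes (−0.56).

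The genes whose pattern over the 4 libraries was most like each of the 9 were found by the Euclidean distance between centred log2(RPKM + 1) values, over 11239 other genes with a symbol. The distance rests on 4 points, so the number of genes within 0.5 is given too. Nearest to Cdkn2d was Tk1 (distance 0.35), the single gene within 0.5, followed by Ska1 (0.70). Cdkn2a had 24 genes within 0.5, led by Tram1 (0.11), with 24.99, 50.4, 8.63 and 40.6 RPKM in the order wild-type control, wild-type arsenite, null control and null arsenite, and Apol9b (0.20). Cdkn2c had 83, led by Tedc1 (12.4, 4.32, 1.74 and 1.56 RPKM), and Rbl1 216, led by Pus3. Cdkn2b had 222 and Trp53 454, led by Pex16 and Pex7. Rb1, Cdkn1b and Rbl2 had patterns shared by many genes, with 832, 867 and 995 within 0.5, led by Plxnb1, Daxx and Ppp1r13b.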

How the data were processed

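RNA-seq of 4 libraries, 1 in each group, was analysed. The authors deposited RPKM values for 37224 Ensembl genes. Per the submitters' processing notes, TopHat, HTSeq, Bowtie and deepTools were used with the build mm10, with annotation and strand setting not stated. The labels' protocols name depletion of ribosomal RNA and strand-specific libraries, whereas the molecule label reads polyA RNA. Symbols were found for 35449 IDs.

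Depth was taken as the most frequent inverse of RPKM times annotated span over small RNA genes. A gene's length was the shortest that made all its values whole reads (relative tolerance 1e-11), which can be a whole fraction of the true length. Of 521 small RNA genes, 359 had a length equal to the span. Intervals are exact 95% intervals, Poisson for a level and conditional Clopper-Pearson for a ratio of reads, and cover counting error only. Reads carry no molecular identifiers.

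Differences are log2((RPKM + 1)/(RPKM + 1)), which understates low genes, over genes that reach 1 RPKM in any library, and 2-fold on that scale is the threshold. Linear folds use RPKM without a pseudocount. The length trend is a lowess curve (fraction 0.3, statsmodels 0.14.6) over genes of at least 200 bases. Procedures were tested on simulated data. The members, lists and rules were chosen with earlier results of these data known. Every one of the 9 genes is named, and of each list up to 3 genes with the largest arsenite difference in each genotype, of which some are not printed. Ccnd3, Cops5 and Mcm6 fall outside that rule and are named as genes behind a count. Cdkn1a, Cdkn1c, Mdm2, Dot1l, some cell type markers and the genes nearest in pattern are named besides. So are the neighbours of Cdkn2a, Cdkn2b, Rb1 and Rbl2, which were named after their values were seen. Alternatives were a pseudocount of 0.1, no filter, a filter of 5 RPKM, median centring, 75th percentile scaling and removal of the length trend.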

Additional observations from a re-analysis of the deposited data

Results flagged for a closer look

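Cdkn2b differed in direction between genotypes: in wild type it was lower with arsenite (38.8 and 25.2 RPKM without and with it) and in the null higher (16.5 and 26.8), with 1 library in each group. The wild-type log2 difference of −0.60 was −0.04 after median centring and −0.11 after 75th percentile scaling, and the null difference of 0.67 was 0.21 without the length trend. The arsenite effect in null minus that in wild type was 1.27 on the log2 scale. The difference was not tested, since no group had a replicate.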

How the results depend on the processing

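The 5 lower genes of the untreated genotype comparison kept their number under all 6 alternatives, as did the 4 positive and 1 negative differences of the arsenite effects. The median of the 9 in the untreated genotype comparison was −1.02 after median centring, −1.04 with 75th percentiles made equal and −1.07 after removing the length trend. With arsenite, null against wild type, the median was −0.52, −0.58 and −0.47 in the same order, and the count of lower genes was 0, 2 and 0. For arsenite in wild type, the median was −0.042, −0.11 and −0.019, lower genes numbered 1, 1 and 1, and higher genes 2, 2 and 1. For arsenite in the null, the median was −0.31, −0.29 and 0.19, lower genes numbered 0, 1 and 0, and the higher 3, 3 and 2. With a filter of 5 RPKM, which removes Rb1, the null median was −0.51. Without the length trend Rbl1 (0.15) and Rbl2 (0.22) changed sign in the null. A pseudocount of 0.1 and no filter left every count as it was. Median centring subtracts 1 value from every gene, the filter drops a gene, and the cause of the other shifts was not tested. The arsenite libraries hold the fewest reads, and values of Rb1, Rbl1 and Cdkn2c there rest on 36 to 192 reads. No paired analysis was possible because each group held 1 library.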
